A study of Rattus norvegicus with 6 samples.

Results

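The hepatobiliary transporters are 10 liver genes whose proteins move bile acids, phospholipid, sterols, drugs and conjugates into or out of the hepatocyte. They were chosen by symbol for their known function, at a time when earlier results of these data were known. All 10 matched the array, through 20 probes, among 15645 gene symbols that its probes name. Liver RNA came from 6 male Sprague-Dawley rats, an outbred stock, that were 5 weeks old at purchase and ate a basal diet. The control group of 3 was given the vehicle, corn oil, and the other 3 were given carbon tetrachloride (CCl4, 100 mg/kg/day), a solvent that hepatocyte cytochrome P450 converts to reactive radicals and that is used to injure rodent liver. The labels give 28 days in the design and 9 weeks in the treatment protocol, and the files do not settle which holds. Each rat gave 1 array with 1 colour.

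Bile is formed when hepatocytes pump solutes across the canalicular membrane into the canaliculus, and water follows. Bile acids return from the gut through portal blood and are taken up again across the sinusoidal membrane, which also carries export pumps that send bile acids and conjugates back to blood. In cholestatic and toxic liver injury these carriers are known to be regulated at the mRNA level, several of them through the nuclear receptors FXR, PXR, CAR and LXR.

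Values are log2 signals relative to the 75th percentile of the same array, so 0 is a probe as bright as that percentile. A probe's level depends on its own sequence, and levels are not compared between genes. Changes are CCl4 minus corn oil, with the standard error (SE) from limma and n = 3 rats per group. For a gene with several probes the brightest one stood for it, and each probe was also tested on its own. Within the set Abcb1b (2.34) and the sinusoidal exporter Abcc3 (2.20) had the highest changes, and the sterol exporter Abcg5 (-1.42) the lowest among genes well above background on every array. Its partner Abcg8 read lower still, at -2.08, on a probe that was well above background on 1 of 3 CCl4 arrays, and was at -0.64 under normexp background correction. Of 10 genes 0 passed limma's adjusted p of 0.05 over 11939 genes tested, where 76 genes (0.637%) did, 0.561% higher and 0.0754% lower. At an unadjusted p below 0.05 there were 7 of 10 transporters, against 19.7% of all genes. The 3 CCl4 values lay apart from the 3 corn oil values for 6 of 10, with Abcb1b and Abcc3 higher and Abcb11, Abcb4, Abcg5 and Abcg8 lower, against 27.4% of all genes (11.5% higher, 15.9% lower). With every probe tested on its own, 2 of 18 transporter probes passed, both of Abcb1b and both higher, against 0.543% of 20460 probes (0.489% higher). The groups lay apart on 7 of 18 probes higher and 5 lower, against 25.4% of all probes (11.0% higher, 14.4% lower). The 7 were of Abcb1b, Abcc3 and Abcc4, and probes of a gene share rats and are not replicates. In bulk tissue, fewer cells of a type and less RNA per cell cannot be told apart.

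Promoter sequence is shown for Abcg5, which shares its promoter with Abcg8 and had values that followed it liver by liver, and for Abcb1b and Abcb4, neighbours on chromosome 4 whose changes had opposite signs. RefSeq's table for the GRCr8 build held windows from 250 bases before to 50 bases after the start for 8 of the 10 genes, and Abcb11 and Abcc3 had no entry in it. The Abcg5 window is chr6:15717686-15717985 on the plus strand. The Abcg8 window lies on the minus strand of the same stretch, shares 295 of its 300 bases, and its start is 206 bases from that of Abcg5. The Abcb1b window is chr4:26279980-26280279 and the Abcb4 window chr4:26164096-26164395, both on the minus strand. Each is written 5′ to 3′ along its gene, with capitals for matches to CCAAT (Abcg5 and Abcb1b), GATAA (Abcg5) and GGGCGG (Abcb1b and Abcb4) on either strand.
Abcg5: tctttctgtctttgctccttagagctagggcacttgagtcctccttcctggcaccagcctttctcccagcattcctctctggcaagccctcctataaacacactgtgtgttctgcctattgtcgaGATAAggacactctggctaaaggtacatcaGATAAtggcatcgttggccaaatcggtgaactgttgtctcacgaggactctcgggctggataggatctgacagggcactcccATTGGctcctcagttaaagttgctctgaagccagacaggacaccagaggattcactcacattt
Abcb1b: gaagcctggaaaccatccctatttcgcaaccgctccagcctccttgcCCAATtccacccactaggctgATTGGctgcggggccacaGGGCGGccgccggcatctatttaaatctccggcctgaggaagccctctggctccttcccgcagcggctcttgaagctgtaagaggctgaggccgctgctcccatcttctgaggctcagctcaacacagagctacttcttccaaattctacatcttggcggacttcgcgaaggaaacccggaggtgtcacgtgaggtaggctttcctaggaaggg
Abcb4: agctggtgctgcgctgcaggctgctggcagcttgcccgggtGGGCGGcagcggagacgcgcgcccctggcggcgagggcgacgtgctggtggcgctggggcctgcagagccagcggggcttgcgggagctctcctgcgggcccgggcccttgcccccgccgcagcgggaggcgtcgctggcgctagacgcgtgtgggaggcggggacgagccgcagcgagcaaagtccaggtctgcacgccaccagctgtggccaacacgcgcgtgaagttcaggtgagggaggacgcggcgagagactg

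The searches covered both strands of all 33469 windows of this length. CCAAT was in 37.5% of windows, among them Abcg5, Abcg8, Abcb1b and Abcc2, and GGGCGG in 33.1%, among them Abcb4, Abcb1b, Abcc2 and Abcc4. GATAA was in 26.5% of windows, and among the transporters in the shared Abcg5 and Abcg8 stretch alone, 2 times, beginning at -125 and -95 from the Abcg5 start. TATAAA was in 14.2%, among them that stretch and Slco1b2, and AGGTCA, a nuclear receptor half-site, in 16.2%, among them Abcc2, Slc10a1 and Slco1b2. TGACNNNGC, the core of the antioxidant response element, was in 12.1%, among them Abcc2, Abcg5 and Abcg8. The IR-1 element, an inverted repeat of 2 half-sites that FXR can bind, was searched in its exact consensus form and was in 0.0388% and in 0 of the 8 transporter windows. TGACNNNGC did not overlap CCAAT or GATAA in the Abcg5 window. A match says only that these letters are present.

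**Figure D1:**
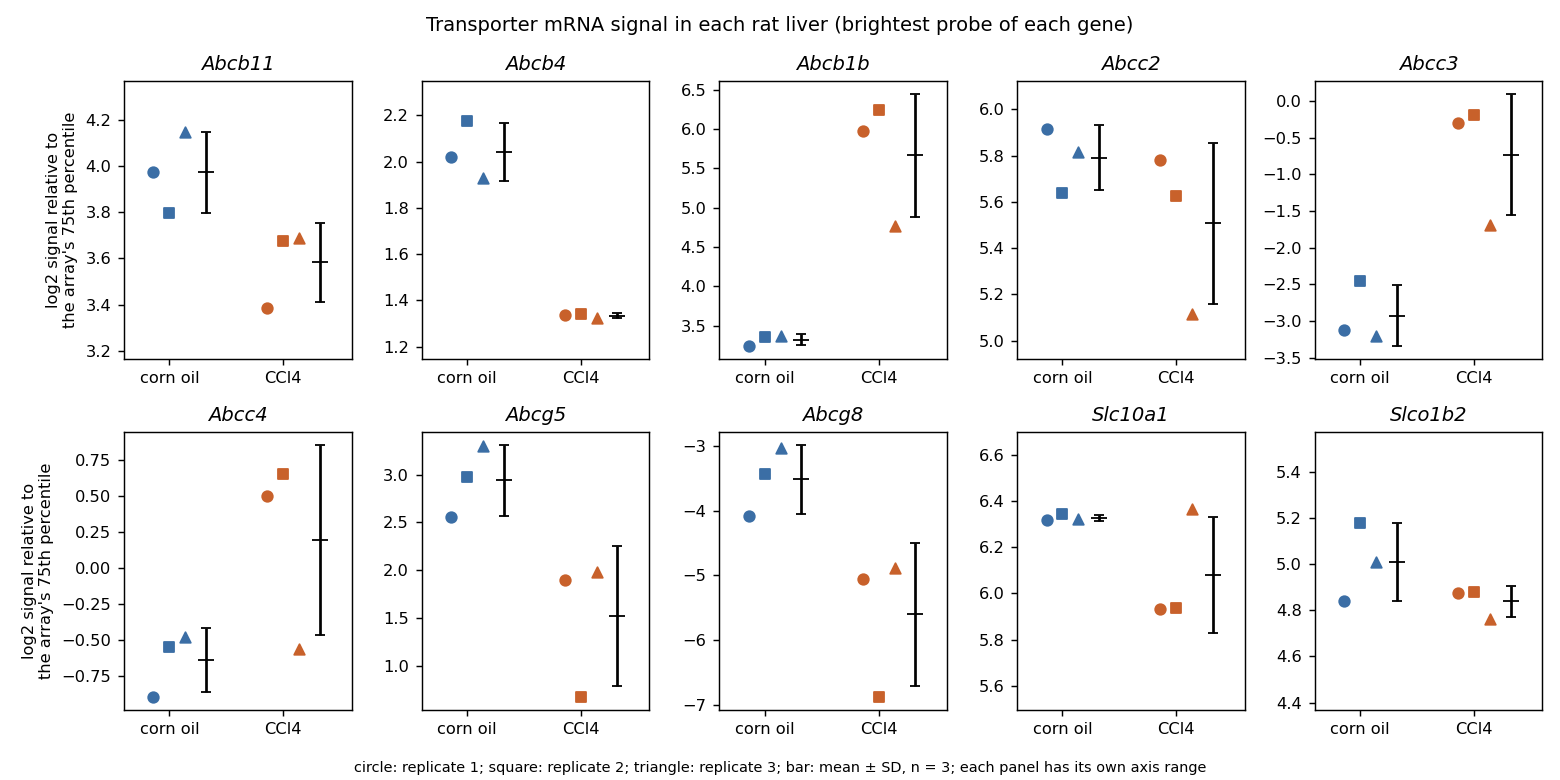
Signal of the brightest probe of each transporter gene in every liver, as log2 relative to the array's 75th percentile (vertical axis, its range set per panel); points are rats, and bars are mean ± SD (n = 3). Abcb1b and Abcc3 lie higher and Abcb11, Abcb4, Abcg5 and Abcg8 lower in the CCl4 livers without overlap, while Abcc2, Abcc4, Slc10a1 and Slco1b2 overlap.

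Among the canalicular exporters, Abcb1b encodes 1 of the rodent P-glycoproteins, which pump drugs and other hydrophobic compounds into bile. On its brightest probe the corn oil livers read 3.24, 3.35 and 3.37 and the CCl4 livers 5.98, 6.24 and 4.77. All CCl4 livers were higher, CCl4 replicate 3 least so. The change was 2.34 ± 0.37, or 5.08-fold (adjusted p = 0.0594 over genes, limma), the 57th largest of all genes tested. The second probe read -0.49, -0.32 and 0.06 in corn oil and 6.27, 6.53 and 4.89 in CCl4, so that the groups were far apart and the CCl4 livers kept the same order. On this probe Abcb1b rose 70.9-fold (log2 change 6.15 ± 0.43; adjusted p = 0.0103 over probes, limma), the 2nd largest rise of 20460 probes. The third probe read -3.86, -2.91 and -3.40 in corn oil and 1.83, 2.46 and 0.95 in CCl4. It rose 35.2-fold (5.14 ± 0.42; adjusted p = 0.0155), the 4th largest rise. Under normexp background correction the third probe, the dimmest in corn oil, was at 4.13, the second at 6.01 and the brightest at 2.31.

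The 3 Abcb1b probes therefore gave the same direction in every liver and sizes that differed beyond their errors, since the 95% confidence interval was 1.45 to 3.24 on the brightest probe against 5.11 to 7.18 and 4.13 to 6.15 on the others. The gap of 3.80 between the largest and the smallest was the 6th widest among 5992 genes with several tested probes, where the median gap was 0.145. As unlogged processed signal, the brightest probe went from a mean of 5914 units in corn oil to 35426 in CCl4, the second from 503 to 42394 and the third from 58.5 to 2364. All 3 name the same RefSeq transcript, none was saturated, and each was well above background on all 6 arrays. Probe sequences were not used here, so whether a probe also binds the transcript of a related gene such as Abcb1a was not tested. Abcb1a, the other rodent P-glycoprotein gene, had a single probe at -3.81, -3.35 and -3.85 in corn oil and -2.38, -2.44 and -3.42 in CCl4, with a change of 0.92 ± 0.31 (adjusted p = 0.194).

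All 3 corn oil livers and CCl4 replicate 1 were on 1 slide, so a comparison blocked by slide sets 1 CCl4 liver against 3. The error of the blocked fit also takes in the difference between CCl4 replicates 2 and 3 on the second slide. On the first slide by itself, the 1 CCl4 liver is assumed to vary as the corn oil livers do. Neither Abcb1b probe then passed in limma, at 6.52 for the second (adjusted p = 0.101 with the block and 0.0638 on that slide by itself) and 5.22 for the third (0.145 and 0.0867). Neither passed without CCl4 replicate 1 (adjusted p = 0.0578 and 0.0804) or CCl4 replicate 2 (0.0649 for both), nor did the third without corn oil replicate 3 (0.0738), at log2 changes of 4.78 to 5.96.

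**Figure D2:**
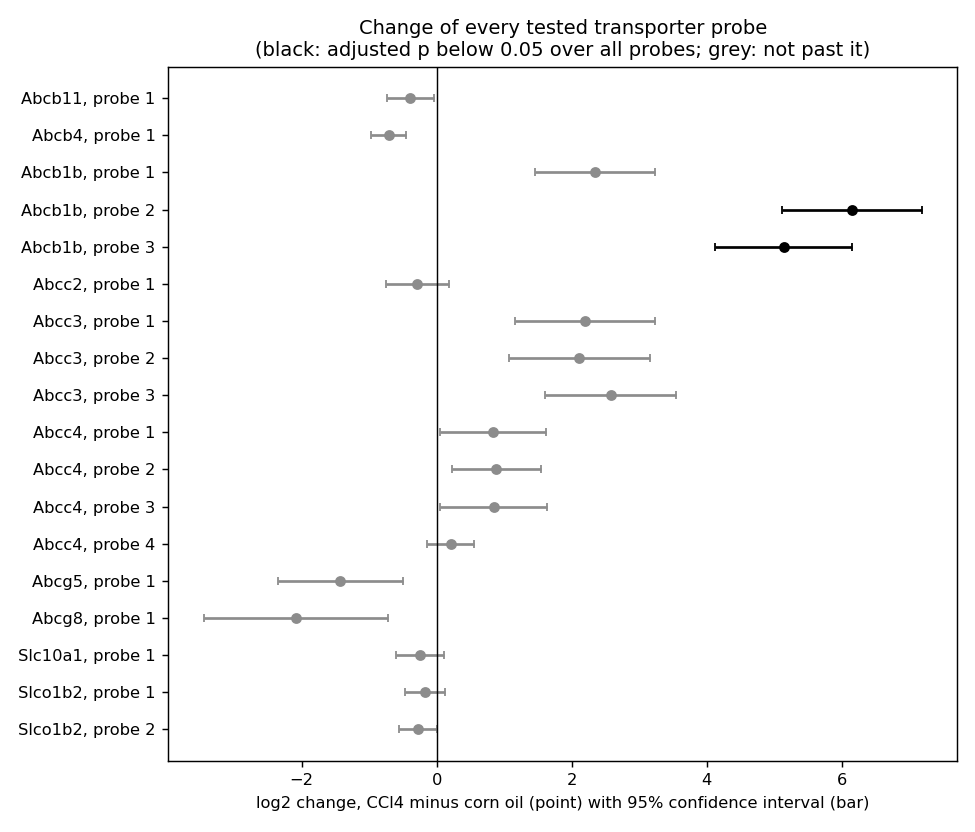
Log2 change, CCl4 minus corn oil, of the 18 transporter probes that were tested (points) with the 95% confidence interval from limma (bars). The second Abcb1b probe, at 6.15, and the third, at 5.14, lie beyond the interval of the brightest, at 2.34, and the 3 Abcc3 probes lie together at 2.11 to 2.58.

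Abcb4, also called Mdr2, flips phosphatidylcholine into bile, where the lipid shields the bile ducts from bile acids. It read 2.02, 2.17 and 1.93 in corn oil and 1.34, 1.34 and 1.32 in CCl4. The groups lay apart, and the 3 CCl4 livers were almost level, with an SD of 0.010. The change was -0.71 ± 0.10 (1.63-fold lower), which missed the threshold (adjusted p = 0.0558, limma) and was as large on the slide that held both groups (-0.70). It did pass under 7 of 19 alternatives, among them normexp background correction (-0.68), with adjusted p from 0.0267 to 0.273 over all 19. Abcb4 and Abcb1b thus lie near each other in the genome, with 2 annotated genes between them, and had changes of opposite sign.

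Abcb11, the bile salt export pump, moves conjugated bile acids across the canalicular membrane and sets the pace of bile acid secretion. Corn oil livers read 3.97, 3.80 and 4.15, and CCl4 livers 3.39, 3.67 and 3.69. The CCl4 livers were the lower, with a change of -0.39 ± 0.14 (1.31-fold lower; adjusted p = 0.216, limma). Abcc2, or Mrp2, exports bilirubin glucuronide and glutathione conjugates into bile. It read 5.92, 5.64 and 5.82 in corn oil and 5.78, 5.63 and 5.11 in CCl4. The groups overlapped, CCl4 replicate 3 was the lowest liver, and the change was -0.28 ± 0.19 (95% confidence interval -0.75 to 0.18; adjusted p = 0.447). CCl4 replicate 1 by itself differed from the corn oil mean by -0.010.

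Abcg5 and Abcg8 form a heterodimer that exports cholesterol and plant sterols into bile. Abcg5 read 2.56, 2.97 and 3.30 in corn oil and 1.90, 0.67 and 1.98 in CCl4. Abcg8 read -4.09, -3.43 and -3.03 in corn oil and -5.05, -6.87 and -4.88 in CCl4. The 6 livers fell in the same order for both genes, from corn oil replicate 3 at the top through corn oil replicates 2 and 1, then CCl4 replicates 3, 1 and 2. Both genes lay lower in CCl4 without overlap and with wide errors. Abcg5 was at -1.42 ± 0.39 (2.68-fold lower; adjusted p = 0.132, limma), the 37th lowest change among the genes tested. Abcg8 was fitted at -2.08 ± 0.57 (adjusted p = 0.132), with no fold given because most of its CCl4 spots were not well above background. CCl4 replicate 2 lay farthest from the corn oil mean, by -2.27 for Abcg5 and -3.35 for Abcg8, and without it the Abcg8 change was -1.45. The Abcg8 probe was well above background on 3 corn oil arrays and on 1 CCl4 array. Under normexp, which adds an offset, it was at -0.64 and Abcg5 at -1.28. The other 2 Abcg8 probes were well above background on 0 of 6 arrays and were not tested. On the slide that held both groups Abcg5 was at -1.05 and Abcg8 at -1.53.

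Among the sinusoidal exporters, Abcc3, or Mrp3, returns glucuronides and bile acids from the hepatocyte to blood and is known to be sparse in untreated rat liver. Its brightest probe read -3.12, -2.45 and -3.20 in corn oil and -0.30, -0.19 and -1.68 in CCl4. All CCl4 livers were higher, CCl4 replicate 3 again least. The change was 2.20 ± 0.43 (4.58-fold; adjusted p = 0.0759, limma), the 70th largest. The other 2 probes gave 2.11 ± 0.43 and 2.58 ± 0.40 (adjusted p = 0.0912 and 0.0625 over probes) and had the same order of CCl4 livers, with CCl4 replicate 2 highest. Under normexp the 3 changes were 1.59, 1.14 and 1.30. With slide as a block the brightest probe was at 2.62 (adjusted p = 0.254 over genes).

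Abcc4, or Mrp4, exports bile acids together with glutathione, and cyclic nucleotides. Its brightest probe read -0.89, -0.55 and -0.48 in corn oil and 0.50, 0.65 and -0.56 in CCl4. CCl4 replicates 1 and 2 lay above every corn oil liver and CCl4 replicate 3 within their range. The change was 0.84 ± 0.33 (1.78-fold; adjusted p = 0.242, limma). The second probe gave 0.88 ± 0.27, the third 0.84 ± 0.33, and the fourth 0.21 ± 0.14. On the second probe the groups lay apart, at -2.37 to -1.83 in corn oil and -1.62 to -0.64 in CCl4.

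The uptake carriers had the smallest changes of the set. Slc10a1, or Ntcp, takes up conjugated bile acids with sodium. It read 6.31, 6.34 and 6.32 in corn oil and 5.93, 5.94 and 6.37 in CCl4. CCl4 replicates 1 and 2 were lower than all corn oil livers, by 0.39 from their mean, and CCl4 replicate 3 was the highest of the 6. The change was -0.25 ± 0.14 (95% confidence interval -0.60 to 0.10; adjusted p = 0.382, limma). Slco1b2, or Oatp1b2, takes up bile acids and drugs without sodium. It read 4.84, 5.18 and 5.01 in corn oil and 4.88, 4.88 and 4.76 in CCl4, which overlapped, with a change of -0.17 ± 0.12 (-0.46 to 0.12; adjusted p = 0.465). Its second probe gave -0.28 ± 0.12 (adjusted p = 0.278 over probes).

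CCl4 replicate 3 was the CCl4 liver nearest to the corn oil mean for 7 of 10 transporters, namely Abcb11, Abcb1b, Abcc3, Abcc4, Abcg5, Abcg8 and Slc10a1, and for 43.5% of all genes tested. It was the farthest for Abcb4, Abcc2 and Slco1b2, where for Abcb4 the 3 livers differed by 0.02 at most. Without it 3 transporters passed, all higher, against 2.02% of all genes: Abcb1b at 2.79 (adjusted p = 0.00561, limma), Abcc3 at 2.67 (0.0213) and Abcc4 at 1.21 (0.0396). On probes 7 of 18 then passed, against 1.29% of all probes, and all 7 were of these same 3 genes. Leaving out any other single array gave 0 transporter genes past the threshold. CCl4 replicate 3 was singled out from these same values. Leaving out the liver nearest to the corn oil mean makes a change larger, so these calls are not separate support. The label of that liver does not differ from the others of its group, and it shared the second slide with CCl4 replicate 2.

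**Figure D3:**
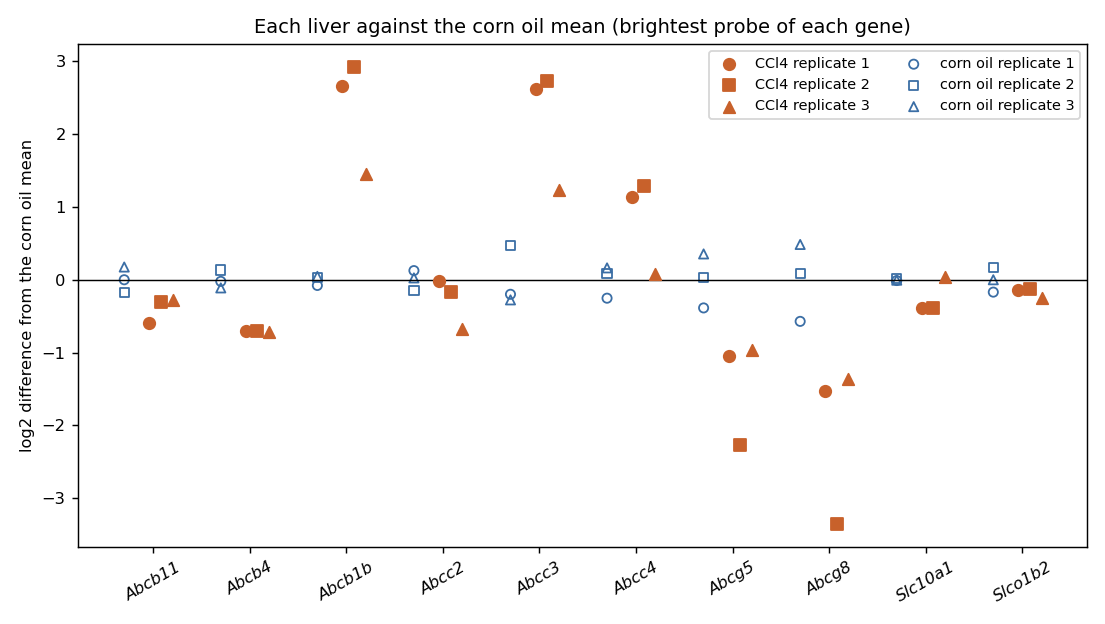
Difference of each liver from the corn oil mean on the log2 scale (vertical axis) for each transporter (horizontal axis), filled for CCl4 and open for corn oil, with marker shape for the replicate. CCl4 replicate 3 lies nearer to 0 than the other CCl4 livers for Abcb1b, Abcc3, Abcc4 and Slc10a1, and CCl4 replicate 2 lies farthest from 0 for Abcg5 and Abcg8.

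The median change was -0.27 over the 10 transporters and -0.05 over all genes tested, and the median size of change, whatever its sign, was 0.772 against 0.198. With both groups pooled, the transporters had a median within-group SD of 0.378 against 0.187 for all genes. Their SD was higher in CCl4 than in corn oil, for example 0.79 against 0.07 for Abcb1b, except for Abcb11, Abcb4 and Slco1b2. Other genes of bile formation were listed by function, and 0 of them passed in any list (limma, adjusted over all genes). Over all genes tested, 11.5% lay apart and higher, 15.9% apart and lower, and 19.7% had an unadjusted p below 0.05. The other exporters had a median of 0.16, with 3 of 10 tested genes apart and higher, 2 apart and lower, and 5 at an unadjusted p below 0.05. Abcc1, a relative of Abcc3 (0.71 ± 0.17), the sterol exporter Abcg1 (0.55 ± 0.11) and Abcc5 (0.48 ± 0.14) were the higher ones, and Abcc6 (-0.35 ± 0.13) was among the lower. Abcg2, which exports sulfates and drugs, was at -0.29 ± 0.39, and Slc51a and Slc51b, the subunits of the sinusoidal bile acid exporter OST, were not tested. Genes of the flippase and of canalicular anchoring had a median of -0.14 (11 tested, 2 apart higher, 2 apart lower, 4 at an unadjusted p below 0.05). Ezr, which encodes ezrin of the cortical cytoskeleton, was at 0.77 ± 0.16, its liver-abundant relative Rdx, radixin, at -0.40 ± 0.11, the scaffold gene Pdzk1 at -0.44 ± 0.16 and the vesicle fusion gene Stx3 at 0.65 ± 0.19. The flippase gene Atp8b1 was at -0.24 ± 0.23, and its sign turned on the slide that held both groups (0.10). Other uptake carriers had a median of -0.28, with 2 of 12 apart, both lower, and 3 at an unadjusted p below 0.05. The ones apart were the organic anion carrier Slc22a7 (-0.63 ± 0.12) and the bile acid ligase Slc27a5 (-0.83 ± 0.26), while Slco1a1 (-0.30 ± 0.13) and Slco1a4 (-0.31 ± 0.19), organic anion carriers like Slco1b2, overlapped.

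Of 15 tested nuclear receptor and signalling genes 5 lay apart, all lower, against 15.9% of all genes, and 3 had an unadjusted p below 0.05, against 19.7% of all genes. The list median was -0.16. Nr1i3, which encodes CAR, read 3.36, 3.66 and 3.20 in corn oil and 1.98, 2.32 and 2.62 in CCl4, the lowest change of the list (-1.10 ± 0.20; adjusted p = 0.0725, limma). Fgfr4, the receptor of the intestinal bile acid signal, was at -0.59 ± 0.20, Hnf4a at -0.34 ± 0.17 and Nr1i2, which encodes PXR, at -0.26 ± 0.19. Nr1h4, which encodes FXR, was at -0.25 ± 0.22, with values from -0.74 (with slide as a block) to 0.0010 (without CCl4 replicate 1) over 19 alternatives. Its target Nr0b2 was at 0.35 ± 0.64, reached 1.18 with slide as a block, and turned sign without corn oil replicate 3 (-0.32) or CCl4 replicate 1 (-0.06). Of 12 bile acid synthesis genes 1 lay apart and higher and 4 lower (median -0.19; 2 at an unadjusted p below 0.05). Slc27a5, already counted among the uptake carriers, is among the 4 and among the 2. Cyp8b1, the enzyme that makes cholic acid, was at -1.31 ± 0.25 (adjusted p = 0.0725), Hsd17b4 at -0.30 ± 0.12 and Akr1d1 at 0.64 ± 0.27, whereas Cyp7a1, the rate-limiting enzyme, ranged from -2.70 to 1.55 in corn oil alone and was at 1.22 ± 1.14. The 11 tested NRF2 targets had a median of -0.02, with 3 at an unadjusted p below 0.05. Nqo1 was at -0.39 ± 0.28, and at 0.0043 on the slide that held both groups.

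**Figure D4:**
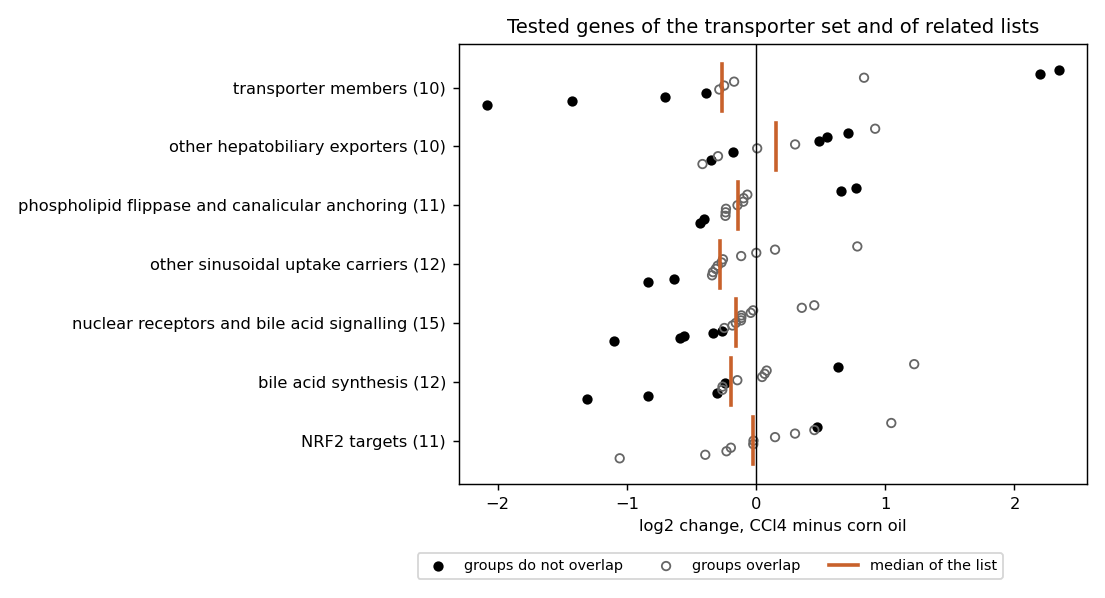
Log2 change, CCl4 minus corn oil (horizontal axis), of each tested gene in the transporter set and in the 6 related lists, filled where the 3 CCl4 values lie apart from the 3 corn oil values, with a bar at each list's median. The transporters spread from -2.08 (Abcg8, dim in the CCl4 livers) to 2.34, and the medians of the 6 related lists lie between -0.28 and 0.16.

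Cell type markers were set beside these values as a summed level, the sum of unlogged signals in units of the array's 75th percentile. Counts of markers apart stand against 11.5% of all genes tested that lay apart and higher, and 15.9% apart and lower. Hepatocyte markers were well above background on every array, at 6944 to 7422 in corn oil and 5775 to 6570 in CCl4, with 4 of 10 apart and lower. Macrophage markers were at 104 to 121 in corn oil and 142 to 163 in CCl4, with 6 of 11 apart and higher and in corn oil each of the 11 was well above background on 2 or 3 arrays. Of these Trem2, Gpnmb and Lgals3 rose, by 4.33, 3.04 and 2.36 on the log2 scale (limma, adjusted p below 0.05). The other markers of the list did not pass, and the Kupffer cell genes Vsig4 (-0.50 ± 0.21), Cd163 (-0.42 ± 0.23) and Clec4f (-0.35 ± 0.14) had changes below 0, while Cd68 was at 0.13 and Csf1r at 0.01. Clec4f was the brightest of the list and so a large part of its sum, which was higher in CCl4 although the change of Clec4f was below 0. Stellate cell and myofibroblast markers were at 42.2 to 50.5 and 56.1 to 79.7, with 5 of 10 apart and higher and CCl4 replicate 3 the lowest CCl4 liver. The collagen genes Col3a1 (0.73 ± 0.20) and Col1a2 (0.99 ± 0.18) were higher and the brightest of this list, so the sum follows them most. The other 5 overlapped, namely Acta2 (-0.24 ± 0.16), Lrat (-0.02 ± 0.17), Tagln (0.003 ± 0.14), Pdgfrb (0.05 ± 0.24) and Col1a1 (0.16 ± 0.26). Another Col1a1 probe had a larger change than this brightest one. Bile duct markers were at 13.5 to 14.1 and 12.6 to 15.4, with 1 of 8 apart and higher and 1 lower. Slc4a2, also listed among the exporters, was the lower of these (-0.18 ± 0.10) and the brightest of the list, so the sum follows it most. Epcam was the higher (0.52 ± 0.14), and Spp1 overlapped at 1.46 ± 0.90. The median change of the list was 0.04, with 5 of 8 above 0. Endothelial markers were at 45.4 to 54.1 and 38.5 to 46.2, with a median change of 0.10 and 4 of 7 above 0. The 1 endothelial marker apart, Kdr, was the brightest of the list and lower (-0.38 ± 0.12; adjusted p = 0.171, limma), so the sum follows it most. Lymphocyte markers were at 4.268 to 5.926 and 3.858 to 4.005, with 1 of 9, the granzyme gene Gzma, apart and past the threshold, lower in CCl4. Gzma (-1.32 ± 0.14) was the brightest of the list in corn oil, so the sum is weighted towards it there. The median change of the list was -0.06, with 3 of 9 above 0. These were Cd3e (0.90 ± 0.58), Cd2 (0.47 ± 0.42) and Cd3g (0.38 ± 0.33), all with overlapping groups. The part of these cell types in the transporter values was not tested.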

How the data were processed

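The authors deposited 1 scanner file per liver with Agilent Feature Extraction intensity values per spot (version 10.7, per the submitters' processing notes), background-subtracted and not scaled between arrays. The deposited value table is a linear ratio, in constant proportion to those signals (divisors of 583.3 to 676.5 units per array, near the 75th percentile of 582.6 to 675.6; column medians 0.103 to 0.110). The labels do not give that step. Probes were named through RefSeq accessions in a GRCr8 gene table: 28206 of 61537 non-control probes (45.8%) had 1 symbol. The array design names rn4, so only promoter windows have coordinates.

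The log2 of each signal was taken, less that array's 75th percentile. Control spots and 26 outlier-flagged probes were left out. Probes well above background on at least 3 of 6 arrays were tested. From 61.9% to 67.3% of probes were well above background per array, and 3 arrays per group limit the precision. Groups came from the treatment label. limma 3.58.1 in R 4.3.3 (lmFit, eBayes, two-sided) was used with Benjamini-Hochberg adjustment over all 11939 genes, or 20460 probes.

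The transporters and lists were chosen with earlier results of these data known. The naming rule took all 10 transporters with every probe, up to 4 genes of each list whose groups lay apart, by size, and a fixed set of further genes; some listed genes are not reported here. Alternatives were other scalings, normexp (offset 50, on median spot signals since mean signals are not in the files), the deposited ratio, other filters, probe choices, variance models, slide, replicate number and leaving out each array. The main fit did not pair samples by replicate number. Correlations of deviations were -0.05, 0.16 and 0.02 for samples of the same number and -0.18 to 0.15 for the others. With 3 rats per group these values cannot exclude a pairing. Python 3.11.15 with pandas 2.3.3 and matplotlib 3.10.9 was also used.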

Additional observations from a re-analysis of the deposited data

How the results depend on the processing

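All 10 transporters kept the sign of their change under every alternative run, 19 for each gene and 18 for Abcg8, which the filter on all 6 arrays left out. The count of transporters past the threshold, 0 as reported, was 2 (Abcb1b and Abcb4) with median scaling, normexp, the filter on all 6 arrays, a variance trend, array weights or each gene's probes averaged, 1 with slide as a random block (Abcb4) or every probe on its own (Abcb1b), and 0 to 3 when 1 array was left out. The mean of its probes put Abcb1b at 4.54. The count over all genes, 76, was 210 with normexp, 139 with the filter on all 6 arrays, 156 with a variance trend, 128 with array weights, 4 with slide as a fixed block, 0 within the first slide (limma; 1598 at an unadjusted p below 0.05), 10 with the replicate number as a block and 2 to 241 when 1 array was left out (27, 43 and 5 for corn oil replicates 1, 2 and 3; 6, 2 and 241 for the CCl4 ones). The replicate block gave 0 transporters and 0 probes, with the second Abcb1b probe at adjusted p = 0.0793 and the third at 0.0637 (limma). The median change of the transporters, -0.27, was -0.22 with quantile normalization, -0.30 with median scaling, -0.19 with normexp, 0.52 over probes, which Abcb1b, Abcc3 and Abcc4 weight by their number, and -0.30 to -0.24 when 1 array was left out.

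Runs on probes and on the other named genes were added after seeing the data. The count of transporter probes, 2, was 4 with normexp or array weights, 5 with the filter on all 6 arrays or a variance trend, 0 with slide as a fixed block, within the first slide or with the replicate number as a block, and 0 to 7 when 1 array was left out. The sign turned for Atp8b1 (0.10) and Nqo1 (0.0043) with slide as a block and within the first slide, for Nr0b2 with corn oil replicate 3 (-0.32) or the first CCl4 array (-0.06) left out, in a range of -0.32 to 0.77 when 1 array was left out, and for Nr1h4 with CCl4 replicate 1 left out (0.0010), in a range of -0.41 to 0.0010. The causes were not tested. No value per gene was made from every probe on its own. Dim probes, Abcg8 above all, are limited by signal over background.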

Other observations

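Taking the brightest probe for a gene set aside calls in other genes as well as in Abcb1b. Of 5992 genes with several tested probes, 26 had a brightest probe that missed the threshold over probes while another probe passed (limma), 24 of these higher and 2 lower in CCl4. For 11 genes the brightest and another probe both passed, and for 10 the brightest alone. Abcb1b had the largest change among the 26. The next was Ccl7, a monocyte chemokine, at 2.20 on its brightest probe and 3.12 on another (adjusted p = 0.0214). Prc1, a protein of the mitotic spindle midzone, was at 1.57 and 2.74 (adjusted p = 0.0411). Sp7, known as an osteoblast transcription factor, was at 0.07 and -2.63 (adjusted p = 0.0118), and Eno2, a glycolytic enzyme best known from neurons, at -0.04 and 1.52 (adjusted p = 0.0478). The passing probes of Ccl7, Prc1 and Sp7 were well above background on 3 of 6 arrays, the fewest that the filter allowed. Their changes are therefore limited by signal over background, while the passing Eno2 probe was well above it on all 6. Whether the probes of these genes bind different transcripts was not tested, and these examples were chosen after their values were seen.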
